A study of Mus musculus with 12 samples.

Results

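Glutamate and GABA are the main fast excitatory and inhibitory transmitters of the brain, and their receptors are built from the subunits described here. The group comprised 41 genes, taken by symbol from the 33864 loci of the expression table: the subunits of AMPA, NMDA and kainate receptors, the delta and metabotropic glutamate receptors, and the subunits of GABA-A and GABA-B receptors. All 41 symbols were found, at 57 loci, and each of the 7 symbols with several loci was represented by the locus with the highest mean over the 12 libraries. RNA came from subcortical white matter of single mice, 12 in all, with 3 to each of 4 groups. Sox10-tTA;TRE-dnEGFR mutants carried a tetracycline transactivator driven by Sox10, a gene of the oligodendrocyte lineage, and a responder for dnEGFR, a dominant-negative epidermal growth factor receptor. Their littermates carried TRE-dnEGFR alone, and both groups were given doxycycline between postnatal days 21 and 35 and were sampled at day 35. Sox10-tTA;TRE-ErbB2V664E mutants carried the same transactivator with a responder for ErbB2V664E, an activated form of the receptor ErbB2. Their littermates carried TRE-ErbB2V664E alone, with doxycycline between days 21 and 30 and sampling at day 30. No group carried the transactivator alone, and the labels do not state whether doxycycline turned the responders on or off. Replicates with the same number in a line were littermates, and values below are in the order of replicates 1, 2 and 3.

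AMPA, NMDA and kainate receptors are ion channels of 4 subunits that open when glutamate binds, and their make-up sets calcium entry, kinetics and the block by magnesium. Metabotropic glutamate receptors and GABA-B receptors act through G proteins, whereas GABA-A receptors are chloride channels assembled from alpha, beta and a gamma or delta subunit. In white matter, receptors of these families are found on oligodendrocyte precursors, oligodendrocytes and astrocytes as well as on neurons and their axons.

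The tissue held RNA of both glia and neurons, which bears on every level given below. Summed over 8 mature oligodendrocyte markers, libraries lay between 712.6 and 1916 FPKM (fragments per kilobase of transcript, relative to the size of the library), and summed over 10 neuronal markers between 484.8 and 815.7. Markers of cortical excitatory neurons (384.6 to 645.0) and of interneurons (264.0 to 381.2) were also high, although the label names white matter. Summed over 6 ependymal and choroid plexus markers, libraries ranged widely, from 23.35 to 717.0 FPKM. The part of that tissue in the levels given below was not tested. Receptor RNA from neurons and from glia was not separated, and in such bulk pieces fewer cells of a type and less RNA per cell cannot be told apart. FPKM totals lay between 117363 and 134410 per library. An estimated 16596881 to 24739626 fragments stood behind each library, so that 1 FPKM in a transcript of 2 kb corresponded to 33.2 to 49.5 fragments. For Egfr, the receptor gene that dnEGFR is named after, dnEGFR controls had 3.02 ± 0.348 FPKM and dnEGFR mutants 2.90 ± 0.160 (SD, n = 3). ErbB2V664E controls had 0.900 ± 0.112 FPKM of Erbb2, and their mutant littermates 0.864 ± 0.0304. The labels do not say which species or part the transgenes come from, and these levels therefore say nothing on the genotypes.

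The promoters of Grik3, Grin1, Gabra6 and Gabra3 show the range of sequence context among the receptor genes, from the densest in CG dinucleotides to one with none. Cytosines in CG are the sites of DNA methylation in mammals, and promoters rich in CG are common among broadly used genes. Each window runs 5′ to 3′ from 250 bases before to 50 after a RefSeq transcription start on GRCm38.p6, with CG in capitals. Grik3 lies at chr4:125490446-125490745 (plus strand) with 50 CG, the most of the matched members. Grin1 lies at chr2:25319138-25319437 (minus strand) with 33 CG. Gabra6 lies at chr11:42321023-42321322 (minus strand) with 2 CG, and Gabra3 at chrX:72656758-72657057 (minus strand) with 0.
Grik3: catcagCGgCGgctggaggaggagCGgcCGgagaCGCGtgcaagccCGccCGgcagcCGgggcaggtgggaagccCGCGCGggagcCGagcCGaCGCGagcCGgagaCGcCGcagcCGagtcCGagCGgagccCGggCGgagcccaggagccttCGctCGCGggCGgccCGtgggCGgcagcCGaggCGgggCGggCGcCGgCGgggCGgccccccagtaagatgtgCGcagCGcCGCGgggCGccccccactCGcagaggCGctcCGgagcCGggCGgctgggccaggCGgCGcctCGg
Grin1: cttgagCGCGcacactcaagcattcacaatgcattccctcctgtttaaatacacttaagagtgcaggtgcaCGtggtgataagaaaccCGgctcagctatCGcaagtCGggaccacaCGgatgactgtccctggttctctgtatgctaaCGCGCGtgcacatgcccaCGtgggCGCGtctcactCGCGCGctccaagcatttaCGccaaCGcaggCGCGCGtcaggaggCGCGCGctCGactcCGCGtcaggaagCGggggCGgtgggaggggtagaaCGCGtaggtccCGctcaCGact
Gabra6: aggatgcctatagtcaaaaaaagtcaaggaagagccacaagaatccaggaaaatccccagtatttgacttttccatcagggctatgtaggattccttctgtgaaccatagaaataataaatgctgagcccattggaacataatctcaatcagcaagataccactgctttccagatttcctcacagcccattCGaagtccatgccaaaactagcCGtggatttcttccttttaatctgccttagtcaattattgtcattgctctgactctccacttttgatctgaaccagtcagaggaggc
Gabra3: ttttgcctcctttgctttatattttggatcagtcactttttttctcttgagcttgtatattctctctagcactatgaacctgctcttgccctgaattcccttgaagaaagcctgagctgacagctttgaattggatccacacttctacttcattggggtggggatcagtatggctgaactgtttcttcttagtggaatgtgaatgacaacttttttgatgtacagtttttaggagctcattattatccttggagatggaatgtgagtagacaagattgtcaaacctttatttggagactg

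The windows of 26 of the 41 members were matched in RefSeq, and where a symbol had several starts the window with the most CG was taken. At least 10 CG were present in 21 of the 26, against 45.8% of the 27025 symbols with a window. The other 5 were Gabra3, Gabra6, Gabrg1, Grin3b and Grm6. The 3 members that stayed under 1 FPKM in all 12 libraries, Gabra6, Grin3b and Grm6, were among these 5, at 2, 3 and 4 CG. Gabra3, with no CG in its window, was at 19.3 FPKM on average, above Grik3 at 14.2 (FPKM, mean of 12), so the number of CG did not order the levels. Methylation was not measured. Those not matched included Gabrd, Gria1, Gria3, Grid1, Grik1, Grin2a, Grin2b, Grin3a, Grm4 and Grm5.

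Receptor subunits together took 339.6 to 421.0 FPKM of each library, or 0.262% to 0.338% of its total. FPKM is scaled to transcript length, so levels of different genes can be set side by side. Of the 41, 12 had a mean above 10 FPKM, and 38 reached 1 FPKM in at least 3 libraries and were tested. High means over the 12 libraries were those of Grin1 (35.4 FPKM), Gabbr1 (33.3), Gabbr2 (29.8), Gria2 (25.6) and Gria3 (20.0). Grin1 varied between 29.3 and 47.2 FPKM across libraries and Gabbr2 between 10.8 and 42.8, so the order of these genes was not resolved beyond their spread. Gabra6, a subunit of cerebellar granule cells, was listed at 0 in 10 libraries and at most at 0.0201 FPKM. Grm6, the receptor of retinal bipolar cells, was at most at 0.0148 FPKM, and Grin3b at most at 0.218.

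**Figure D1:**
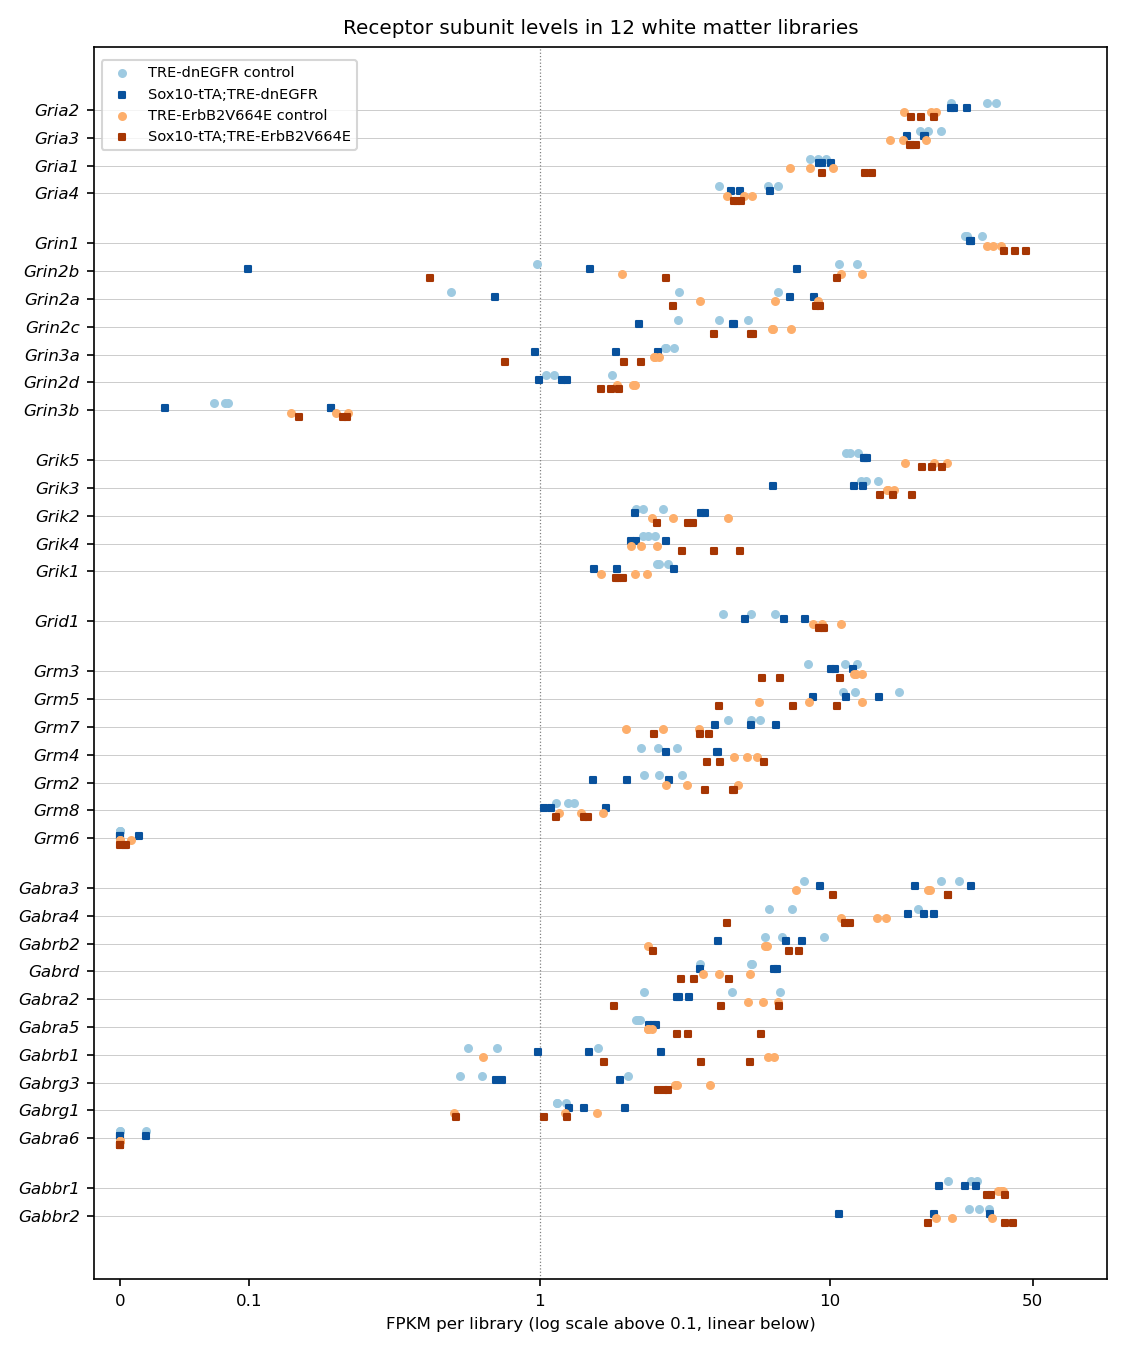
FPKM of 36 receptor genes in each of the 12 libraries (x axis, logarithmic above 0.1 FPKM and linear below), with genes grouped by receptor family on the y axis and 1 point per library. Grin1 spans 29.3 to 47.2 FPKM while Grin2b spans 0.0987 to 12.9, and Gabra6, Grm6 and Grin3b lie under the dotted line at 1 FPKM.

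None of the 38 tested members passed the threshold of 0.05 on the adjusted p in either line or in the difference between lines (limma on log2(FPKM + 1), Benjamini-Hochberg over 13803 loci). Among all loci, 0.0942% passed in the dnEGFR line, 0.275% in the ErbB2V664E line and 0.116% in the difference, so a count of 0 among 38 genes is close to the background. At an unadjusted p under 0.05, 1 member was found in the dnEGFR line (all loci 5.69%), 6 in the ErbB2V664E line (12.1%) and 4 in the difference (9.01%). The median log2 change of the members was -0.02 in the dnEGFR line, with 18 positive and 20 negative, and -0.04 in the ErbB2V664E line, with 16 positive and 22 negative. Over all tested loci these medians were 0.005 and 0.004. In the dnEGFR line all 3 mutants lay above all 3 controls for 3 members (all loci 5.58%) and below for 1 (4.57%), or for 4 of 38 in either direction (10.1%). The ErbB2V664E line had 4 members above (9.28%) and 4 below (8.96%), or 8 of 38 in either direction (18.2%).

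**Figure D2:**
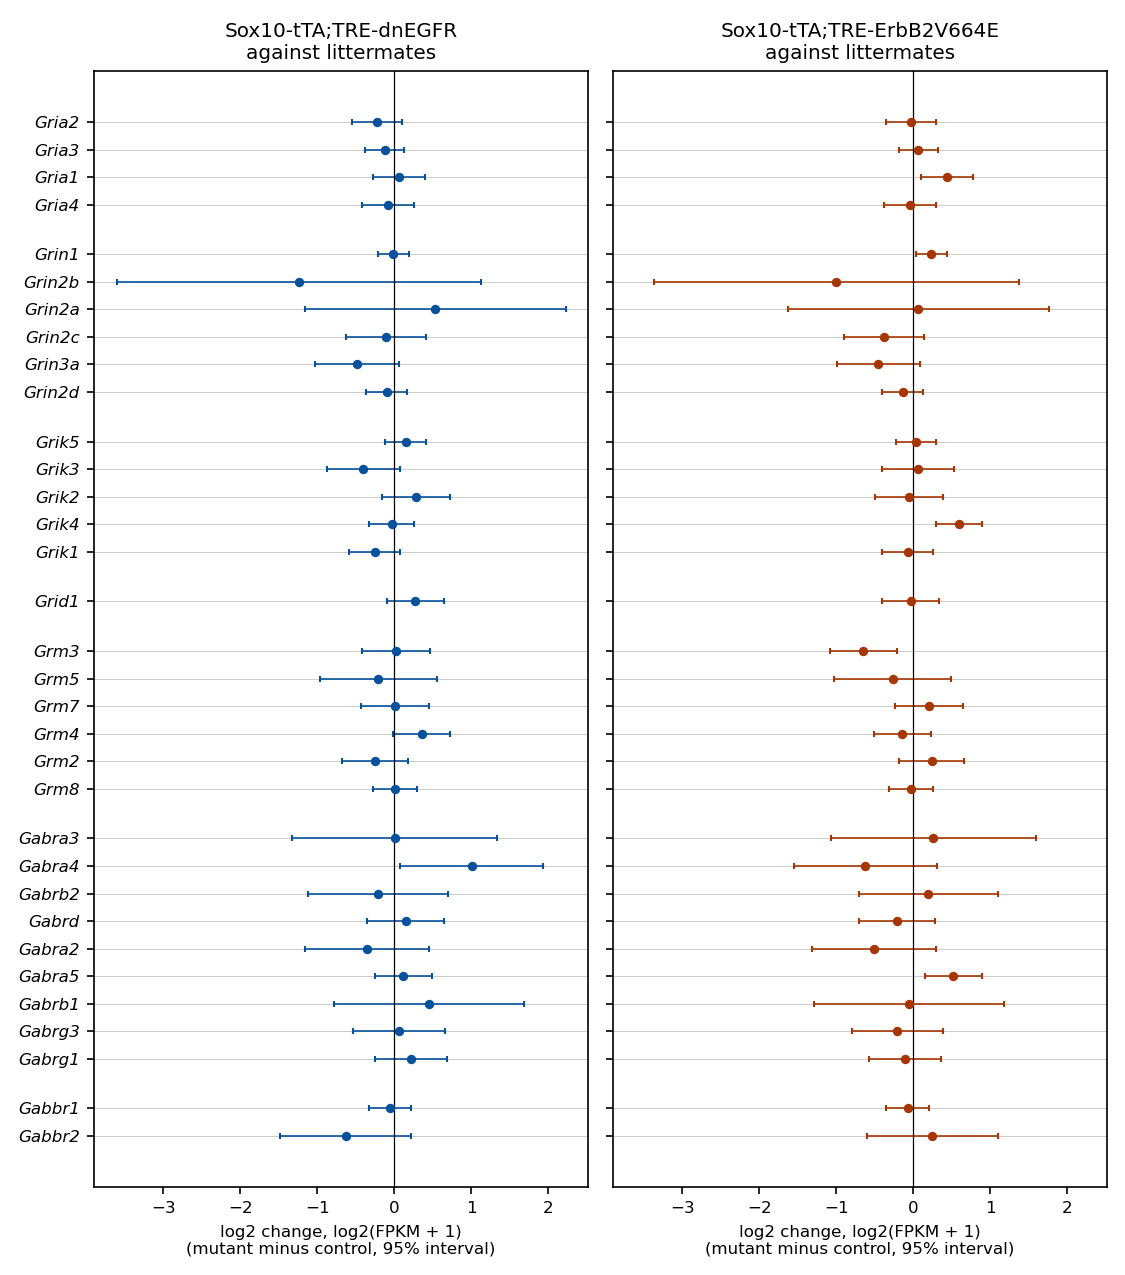
Log2 change of 33 tested receptor genes, mutant minus littermate control on log2(FPKM + 1), in the dnEGFR line (left) and the ErbB2V664E line (right), with bars for the 95% interval of the limma fit. Grik4 stands at 0.59 in the ErbB2V664E panel, and Grin2b has the widest interval in both, from -3.60 to 1.13 and from -3.36 to 1.37.

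AMPA receptor subunits carry fast excitation, and 0 of the 4 passed the threshold in a line. Gria2, the subunit that limits calcium entry through AMPA receptors, was at 37.2, 34.9 and 26.1 FPKM in dnEGFR controls and 29.6, 26.2 and 26.8 in dnEGFR mutants. ErbB2V664E controls had 22.4, 23.1 and 18.1 and their mutants 22.8, 20.6 and 19.0. Mutants and controls overlapped in both lines, with log2 changes of -0.23 (SE 0.15, adjusted p = 0.964) and -0.02 (SE 0.15, adjusted p = 0.978). Gria3 was at 24.1, 21.9 and 20.5 FPKM in dnEGFR controls, 21.2, 21.2 and 18.4 in dnEGFR mutants, 17.9, 21.5 and 16.1 in ErbB2V664E controls and 19.7, 19.1 and 18.9 in ErbB2V664E mutants. Its groups overlapped in both lines, and its 95% intervals of -0.38 to 0.13 and -0.19 to 0.32 on the log2 scale were among the narrowest of the group. Gria1, the subunit trafficked in synaptic plasticity, was at 10.3, 7.28 and 8.56 FPKM in ErbB2V664E controls and 14.0, 9.41 and 13.2 in mutants. Each mutant lay above its littermate, but mutant 2 was below control 1, and the log2 change of 0.44 (SE 0.15) had an adjusted p of 0.267. Gria4 was at 4.14 to 6.61 FPKM throughout.

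The share of Gria2 in the summed AMPA subunits was 46.8% ± 3.97 in dnEGFR controls and 44.0% ± 2.03 in mutants (SD, n = 3, exact permutation p = 0.3). For ErbB2V664E controls and mutants it was 39.6% ± 1.18 and 36.5% ± 2.26, with single libraries at 40.0, 40.6 and 38.3% in controls and 37.1, 38.3 and 33.9% in mutants (exact permutation p = 0.1). The smallest p that 3 against 3 libraries allow is 0.1, and after adjustment over the 6 ratio tests run it was 0.6 for each. In percentage points, mutant minus control, the share differed by -2.75 in the dnEGFR line and by -4.47 there with the loci of a symbol summed. Single libraries moved it to -1.78 (without dnEGFR control 1), -1.43 (without control 2), -5.03 (without control 3) and -1.59 (without mutant 2). The ErbB2V664E difference of -3.18 became -1.93 without mutant 3.

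NMDA receptors need the obligatory subunit encoded by Grin1 together with a Grin2 or Grin3 subunit. Grin1 was at 33.4, 29.3 and 29.6 FPKM in dnEGFR controls and 30.3, 30.7 and 30.5 in mutants, the narrowest interval of any member (-0.21 to 0.19 on the log2 scale). ErbB2V664E controls were at 38.9, 34.8 and 36.5 and mutants at 39.9, 43.4 and 47.2. Every ErbB2V664E mutant lay above every control, and the log2 change was 0.24 (SE 0.09), with an adjusted p of 0.334. Control 1 and mutant 1, the closest, had FPKM totals of 127253 and 131748. Relative to these totals, mutant 1 lay below control 1. Grin3a, a subunit that lowers calcium entry, was at 2.74, 2.71 and 2.90 FPKM in dnEGFR controls and 0.965, 1.83 and 2.57 in mutants. Among ErbB2V664E mice its values were 2.57, 2.50 and 2.47 for controls and 2.24, 1.96 and 0.761 for mutants. All controls lay close together and all mutants below them in both lines, with log2 changes of -0.48 (SE 0.24, adjusted p = 0.918) and -0.45 (SE 0.24, adjusted p = 0.493).

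Grin2b and Grin2a, the alternative partners of Grin1 whose balance shifts during postnatal development, had the widest intervals of the tested members. Grin2b was at 10.8, 0.977 and 12.4 FPKM in dnEGFR controls and 0.0987, 1.49 and 7.68 in mutants. ErbB2V664E controls had 1.93, 12.9 and 10.96 and mutants 10.5, 0.419 and 2.73. Each of the 4 groups held libraries under 3 FPKM and libraries above 7, and in 4 of the 6 litters 1 mouse was low and the other high. Grin2a was at 0.495, 3.02 and 6.63 in dnEGFR controls, 8.82, 7.31 and 0.702 in dnEGFR mutants, 3.56, 9.10 and 6.46 in ErbB2V664E controls and 2.89, 8.95 and 9.24 in ErbB2V664E mutants. The log2 ratio of Grin2a to Grin2b therefore ran from -4.45 to 6.48 in single libraries. Its mean difference between mutants and controls was 3.01 in the dnEGFR line (exact permutation p = 0.4) and 1.56 in the ErbB2V664E line (exact permutation p = 0.6). Single libraries decided the size of both: the first became 1.41 without dnEGFR control 1, 0.661 without mutant 1 and 5.63 without mutant 3, and the second 3.21 without ErbB2V664E mutant 1 and 0.071 without mutant 2. At this spread, a difference in either gene between mutants and controls was not detectable: the 95% intervals for Grin2b run to -3.60 and -3.36. Grin2c was at 2.19 to 7.35 FPKM and Grin2d at 1.00 to 2.12.

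Kainate receptors combine the channel subunits Grik1 to Grik3 with the high-affinity subunits Grik4 and Grik5. Grik4 was at 2.54, 2.07 and 2.24 FPKM in ErbB2V664E controls and 3.09, 4.00 and 4.90 in ErbB2V664E mutants. All 3 mutants lay above all 3 controls, and above all 6 libraries of the dnEGFR line, which spanned 2.06 to 2.73. The log2 change was 0.59 (SE 0.13, 95% interval 0.30 to 0.89), with an adjusted p of 0.120 that ranged from 0.0238 to 0.338 over the alternative settings. In the dnEGFR line Grik4 was at 2.49, 2.36 and 2.28 in controls and 2.15, 2.73 and 2.06 in mutants, a log2 change of -0.03 (adjusted p = 1). The difference between the effects, 0.63 (SE 0.19), had an adjusted p of 0.391, the lowest of the members in that comparison. Grik5 was at 11.8, 12.5 and 11.3 FPKM in dnEGFR controls and 13.2, 13.4 and 13.1 in mutants. These values did not overlap, but the log2 change was 0.15 (SE 0.12, adjusted p = 0.987). Grik3 was at 12.8, 14.6 and 13.4 in dnEGFR controls and 12.1, 6.36 and 13.0 in mutants, with mutant 2 alone far below the others (log2 change -0.40, SE 0.21, adjusted p = 0.923). Grik1 and Grik2 lay between 1.54 and 4.47 FPKM in all libraries.

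Delta receptors are relatives of the ionotropic subunits that organise synapses rather than pass glutamate current. Grid1 was at 5.35, 4.30 and 6.48 FPKM in dnEGFR controls and 5.09, 6.93 and 8.24 in mutants, which overlapped (log2 change 0.28, SE 0.17, adjusted p = 0.953).

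Metabotropic glutamate receptors signal through G proteins, with Grm5 raising calcium and Grm2, Grm3 and Grm4 lowering cyclic AMP. Grm3, strongly expressed by astrocytes and also found in oligodendrocyte precursors, was at 12.9, 12.1 and 12.3 FPKM in ErbB2V664E controls and 10.9, 5.85 and 6.72 in mutants. Every mutant lay below every control, with a log2 change of -0.65 (SE 0.20, 95% interval -1.09 to -0.21) and an adjusted p of 0.212, ranging from 0.0267 to 0.540 over the alternatives. Beside it, the 8 astrocyte markers summed to 432, 251 and 273 FPKM in ErbB2V664E controls and 218, 226 and 257 in mutants, and 5 of the 7 tested had a negative log2 change. Aqp4, the astrocyte water channel, was at 25.2 ± 4.13 and 13.2 ± 1.10 FPKM (SD, n = 3, log2 change -0.88, adjusted p = 0.195). Gjb6, another of these markers, went the other way, with all mutants above all controls. It was at 15.14, 12.01 and 16.16 FPKM in ErbB2V664E controls and 18.39, 20.98 and 26.41 in mutants. The high sum of control 1 included 229.4 FPKM of Slc1a2, which was at 65.90 and 60.67 in controls 2 and 3 and 38.73, 43.79 and 67.25 in mutants. The part of astrocyte content in the Grm3 values was not tested. In the dnEGFR line Grm3 was at 8.42, 12.4 and 11.3 in controls and 10.1, 10.4 and 11.96 in mutants, overlapping, with a log2 change of 0.02 that took the other sign when libraries were scaled to equal sums.

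Grm4, a presynaptic receptor, was at 2.24, 2.98 and 2.56 FPKM in dnEGFR controls and 4.11, 2.72 and 4.09 in mutants. Mutants 1 and 3 lay above all controls and mutant 2 among them, for a log2 change of 0.36 (SE 0.17, adjusted p = 0.893). ErbB2V664E controls had 5.60, 5.19 and 4.66 of Grm4 and mutants 4.18, 5.94 and 3.79, which overlapped. Grm5 was at 12.2, 17.3 and 11.1 FPKM in dnEGFR controls, 14.7, 11.4 and 8.76 in dnEGFR mutants, 12.9, 8.44 and 5.69 in ErbB2V664E controls and 10.6, 4.15 and 7.45 in ErbB2V664E mutants. The groups overlapped, with log2 changes of -0.21 and -0.27 (adjusted p = 1 and 0.812). Grm2, Grm7 and Grm8 lay between 1.03 and 6.54 FPKM.

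GABA-A receptor subunits were the largest family, with 13 genes and a sum of 77.0 to 133 FPKM per library. Of its 12 tested genes, 8 had a positive and 4 a negative log2 change in the dnEGFR line, and 6 each in the ErbB2V664E line. Beside the Gabra5 and Grik4 values of the ErbB2V664E line, the 8 interneuron markers summed to 325, 327 and 381 FPKM in ErbB2V664E controls and 267, 345 and 349 in mutants. Precursor markers, 9 genes, summed to 72.2, 61.3 and 71.5 in controls and 109.9, 110.7 and 97.9 in mutants. Of the 9, 7 had a negative log2 change and 2 a positive one (median -0.17). Olig1, with listed values of 0 for every control, supplied 59.0, 55.1 and 48.0 FPKM of the mutant sums. Without Olig1, every mutant sum lay below every control sum, so the higher mutant sums rested on this gene. The part of interneuron and precursor content in the Gabra5 and Grik4 values was not tested.

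On GRCm38.p6, RefSeq places Gabrg3 and Gabra5 next to each other on chromosome 7, with no other protein-coding gene between them. Gabra5, the alpha subunit of extrasynaptic receptors in the hippocampus, was at 2.36, 2.44 and 2.37 FPKM in ErbB2V664E controls and 2.98, 5.81 and 3.24 in mutants. All mutants exceeded all controls, mutant 2 by the most, and the log2 change was 0.52 (SE 0.17, adjusted p = 0.228). The dnEGFR line had the same order, at 2.18, 2.21 and 2.15 in controls and 2.52, 2.47 and 2.39 in mutants (log2 change 0.12, SE 0.17). Its neighbour Gabrg3, a gamma subunit, had the opposite sign in the ErbB2V664E line. There Gabrg3 was at 3.87, 2.92 and 2.97 in controls and 2.68, 2.57 and 2.78 in mutants, all below the controls (log2 change -0.20, SE 0.27, adjusted p = 0.818). Gria1, Gabra5 and Gabrg3 were chosen for mention after their values were seen.

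Gabra4, an alpha subunit of extrasynaptic receptors in striatum, thalamus and hippocampus, had the smallest p in the dnEGFR line. It was at 7.41, 20.1 and 6.15 FPKM in dnEGFR controls and 22.8, 18.6 and 21.04 in mutants. Control 2 lay inside the range of the mutants, and in that litter the mutant was the lower of the pair. The log2 change was 1.01 (SE 0.42, adjusted p = 0.844, from 0.271 to 1 over the alternatives). With ErbB2V664E, controls had 15.6, 14.6 and 10.9 and mutants 11.7, 11.2 and 4.42, lower in each mutant than in its littermate (log2 change -0.62, SE 0.42, adjusted p = 0.595). The difference between the 2 effects was -1.63 (SE 0.59) with an adjusted p of 0.482. Markers of striatal projection neurons were set beside Gabra4. In the dnEGFR line their sum over 10 genes was 190, 220 and 142 FPKM in controls and 377, 175 and 424 in mutants. Mutant 2, with Gabra4 at 18.6, had a sum inside the range of the controls. All 10 of those markers had a positive log2 change there, of which 0 passed the threshold in limma and 2 had an unadjusted p under 0.05 (all loci 5.69%). ErbB2V664E controls summed to 443.5, 247.2 and 238.4 and mutants to 259.9, 266.6 and 344.6, with 2 positive and 8 negative log2 changes. Mutant 3 of that line, the lowest in Gabra4, had the highest sum of the ErbB2V664E mutants. The part of the striatal markers in the Gabra4 values was not tested. The RefSeq starts of Gabra4 and of Gabrb1 on the opposite strand overlap by 388 bases, and fragments from that stretch cannot be told apart without strand.

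Gabra3, an alpha subunit of monoaminergic and deep cortical neurons, was at 27.8, 24.1 and 8.12 in dnEGFR controls and 9.28, 30.5 and 19.6 in mutants. Its ErbB2V664E libraries were at 7.64, 21.8 and 22.2 in controls and 25.4, 10.2 and 25.5 in mutants, and 1 library in each of the 4 groups lay between 7.64 and 10.2 while the others were at 19.6 to 30.5. The dnEGFR log2 change of 0.01 changed sign under equal sums and under quantile normalization, and that in the ErbB2V664E line was 0.26 (SE 0.60, adjusted p = 0.910). Among other GABA-A subunits, Gabrb2 and Gabrd, partners in synaptic and extrasynaptic receptors, lay between 2.37 and 9.55 FPKM. Gabra2, Gabrb1, Gabrg3 and Gabrg1 lay between 0.509 and 6.76.

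GABA-B receptors are obligate pairs of the products of Gabbr1, which binds GABA, and Gabbr2, which couples to the G protein. Gabbr1 was at 32.0, 30.5 and 25.5 FPKM in dnEGFR controls and 32.0, 23.8 and 29.1 in mutants. ErbB2V664E controls had 39.4, 38.8 and 38.0 and their mutants 34.7, 35.9 and 40.0, overlapping as well. Its log2 changes were -0.06 and -0.07 (SE 0.12 each, adjusted p = 1 and 0.871). Gabbr2 was at 35.2, 30.2 and 32.6 in dnEGFR controls and 22.7, 35.7 and 10.8 in mutants, with mutant 3 far below all other libraries. ErbB2V664E controls at 36.2, 26.3 and 23.2 and mutants at 42.8, 21.8 and 40.1 overlapped. Log2 changes were -0.63 (SE 0.38, adjusted p = 0.955) and 0.25 (SE 0.38, adjusted p = 0.849).

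**Figure D3:**
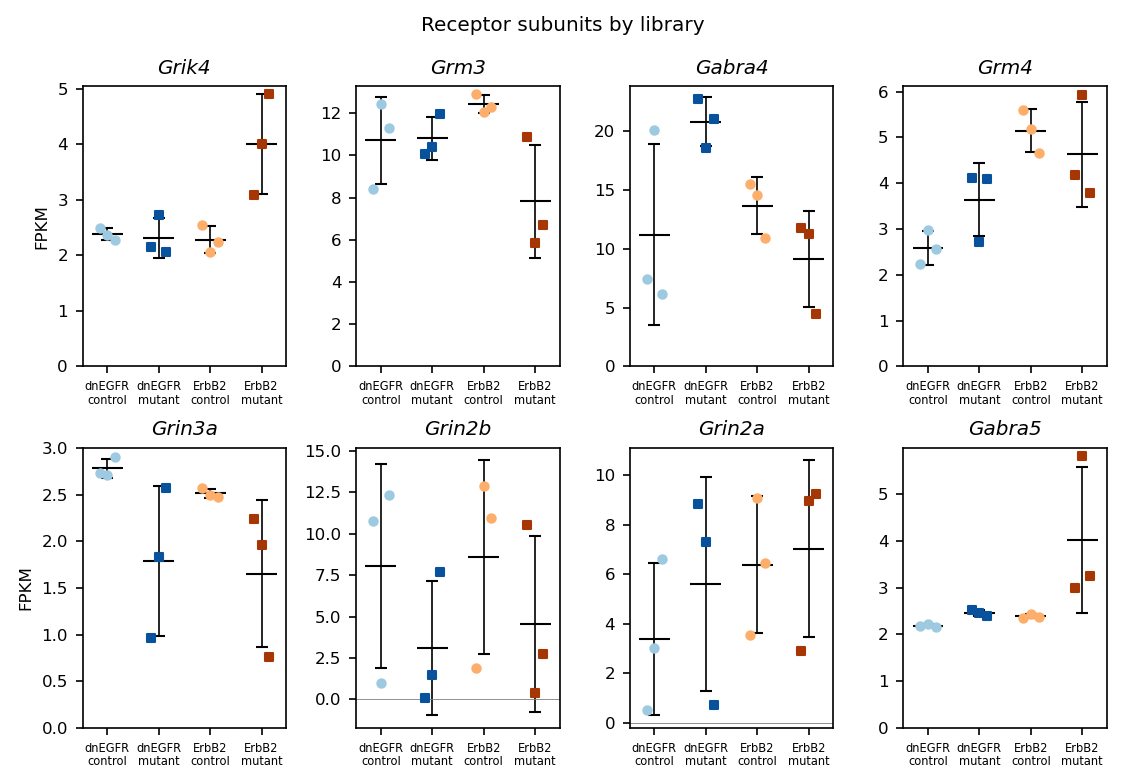
FPKM by library (y axis, from 0) for 8 receptor genes in the 4 groups (x axis), with points for libraries, horizontal lines for group means and bars for SD. Grik4 mutants of the ErbB2V664E line lie at 3.09 to 4.90 above controls at 2.07 to 2.54, whereas Grin2b has libraries under 3 and above 7 FPKM in every group.

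The spread between libraries set what could be detected. In 18 of the 38 tested members the highest library was over 3 times the lowest, against 38.5% of all loci. Leaving out single libraries moved the calls in the ErbB2V664E line. Without ErbB2V664E mutant 1, Grik4 (log2 change 0.73, adjusted p = 0.0238) and Grm3 (-0.88, adjusted p = 0.0267) passed in limma, while the count of loci called went from 38 to 235. Without ErbB2V664E mutant 3, 1 other member passed.

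The levels of 8 of the 38 tested members did not overlap between the 6 libraries of the dnEGFR line and the 6 of the ErbB2V664E line, controls included. That share is close to the 19.9% of all loci. The count depends on the choice of 1 locus per symbol: with loci summed, Grin2d was among those added, at 1.00 to 2.29 against 2.38 to 3.21. It also depends on scale, because FPKM totals did not overlap between lines either. They were 117363 to 125911 in the dnEGFR line and 127253 to 134410 in the ErbB2V664E line, and levels were not rescaled here. Line, age and length of doxycycline cannot be told apart here, and no test was made. The kainate subunit Grik5 was at 11.3 to 13.4 FPKM in the dnEGFR line and 18.1 to 25.3 in the ErbB2V664E line. Also higher in the ErbB2V664E line were Grin1, at 29.3 to 33.4 against 34.8 to 47.2, and Gabbr1, at 23.8 to 32.0 against 34.7 to 40.0. Grik3 (6.36 to 14.6 against 14.8 to 19.2), Grid1 (4.30 to 8.24 against 8.72 to 10.95) and Gabrg3 (0.531 to 2.01 against 2.57 to 3.87) completed the 6 members with that order (all loci 10.5%). Of these, Grin1, Gabbr1, Grik3 and Grid1 overlapped between lines when taken relative to the FPKM total of each library. Higher in the dnEGFR line were 2 members (all loci 9.44%): Gria2, at 26.1 to 37.2 against 18.1 to 23.1, and the presynaptic receptor gene Grm7, at 4.01 to 6.54 against 1.98 to 3.82. Summed over the 5 kainate subunits, libraries lay at 27.5 to 34.9 FPKM in the dnEGFR line and 41.0 to 52.6 in the ErbB2V664E line.

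**Figure D4:**
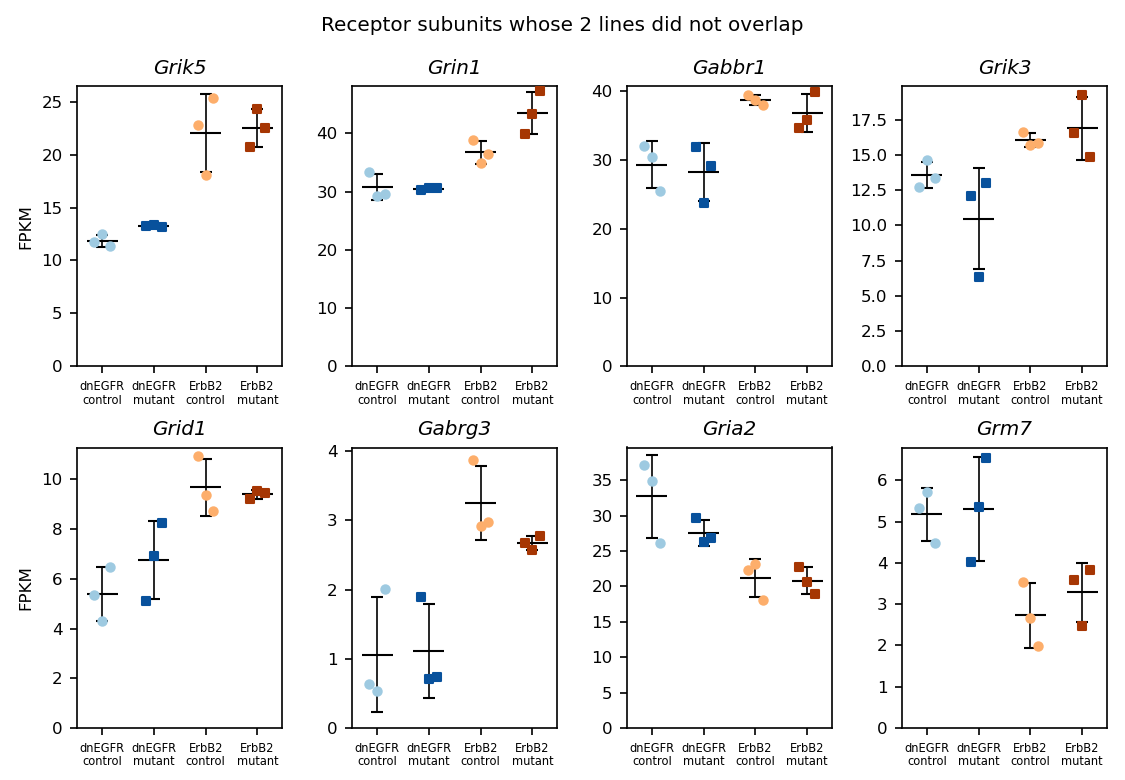
FPKM by library (y axis, from 0) for the 8 receptor genes whose libraries did not overlap between lines, in the 4 groups (x axis), with group means as lines and SD as bars. Grik5 lies at 11.3 to 13.4 in all dnEGFR-line libraries and at 18.1 to 25.3 in all ErbB2V664E-line libraries.

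Genes that work with these receptors were read from 5 lists, and none of their tested genes passed the threshold in a comparison (limma, adjusted p); at an unadjusted p under 0.05 there were 7 of 58 in the dnEGFR line (all loci 5.69%) and 5 of 58 in the ErbB2V664E line (all loci 12.1%). Of 15 auxiliary subunits of AMPA and kainate receptors, 9 had a positive and 6 a negative log2 change in the dnEGFR line (median 0.19), and 3 and 12 in the ErbB2V664E line (median -0.15). Shisa9, an AMPA receptor auxiliary protein, was at 7.25 ± 0.412 FPKM in ErbB2V664E controls and 2.66 ± 0.828 in mutants (SD, n = 3, log2 change -1.20, adjusted p = 0.179). Neto1, an auxiliary subunit of kainate and NMDA receptors, had 5.18 ± 0.451 FPKM for dnEGFR controls against 7.48 ± 0.372 for mutants (log2 change 0.46, adjusted p = 0.446). Medians of the 15 scaffold genes of glutamate receptors were -0.01 and -0.04. Shank1 had the smallest p of them in both lines, with -0.36 (adjusted p = 0.918) and -0.38 (adjusted p = 0.417). The lowest log2 change of the 15 in the dnEGFR line was -0.73. Among 9 scaffold and auxiliary genes of GABA receptors the medians were 0.02 and -0.05. Kctd12, a GABA-B auxiliary subunit, had the smallest p in the dnEGFR line, with control libraries between a listed 0 and 6.35 FPKM and mutants between 6.20 and 7.13. The 10 genes of glutamate transport and metabolism had medians of -0.08 and -0.001, with Slc1a2, the main astrocyte glutamate transporter, at log2 changes of 0.77 (adjusted p = 0.987) and -0.99 (adjusted p = 0.565). Of 9 tested genes of GABA synthesis, transport and breakdown, 4 were positive and 5 negative in each line. Slc12a2, the chloride importer that shapes the response to GABA, had 17.7 ± 1.05 FPKM for dnEGFR controls against 10.1 ± 4.17 for mutants (log2 change -0.81, adjusted p = 0.604). The corresponding ErbB2V664E values were 15.6 ± 1.10 and 9.44 ± 2.70 (log2 change -0.70, adjusted p = 0.258).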

How the data were processed

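Polyadenylated RNA of 12 mice was sequenced in paired ends, with no step named that keeps the strand, per the labels' protocols. The deposited values are FPKM made by the authors in StringTie, according to the design text. HISAT is also named in the submitters' processing notes. Genome build and annotation were not given in the sources used here. A linear model with a mean for each group was fitted to log2(FPKM + 1) of the 12 libraries in limma 3.58.1 (R 4.3.3; moderated with a trend in the variance, two-sided tests), with 8 residual and 2.03 prior degrees of freedom, on the 13803 loci that reached 1 FPKM in at least 3 libraries. P-values were adjusted by Benjamini-Hochberg over these loci (threshold 0.05). Fold changes on this scale understate the change of genes with low values. The fit was tested on simulated data. The members, the lists and the tests were chosen with earlier results of these data known.

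Named by rule were the 3 members with the smallest p in each comparison and the 2 highest members of each family; of the pathway lists, the gene with the smallest p in a list and comparison. Some members that these rules or the ratios take in are counted but not reported here, and those named are given by library in 1 or both lines. Subunit ratios were compared by exact permutation, two-sided. Depth was estimated from the smallest steps of FPKM times length in 14221 loci with 1 transcript (tolerance 0.01 of a fragment). Of the member loci, 4 were joined with another symbol in the assembly (including those of Gria4, Gabrd and Grid1), so their values include it. An exact 0 can be a failed assignment and is described as listed. Correlations between replicates of a group were 0.910 to 0.926, and 0 pairs of columns were identical. The labels pair each mutant with a littermate control; correlations of the pairs' deviations from their group means were 0.016, 0.009, 0.033, -0.004, 0.01 and -0.025, and litter as a block was an alternative. Other alternatives were a pseudocount of 0.1, other filters, equal sums, quantile normalization, summed loci of a symbol, fits within 1 line and leaving out each library. Figures used Python 3.11.15 and matplotlib 3.10.9.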

Additional observations from a re-analysis of the deposited data

How the results depend on the processing

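No member was called in the dnEGFR line or in the difference under any of the alternatives run; in the ErbB2V664E line 0 to 2 members were called when single libraries were left out, and 0 under the other alternatives. With litter as a replicate block the loci called went from 13 to 3 (dnEGFR), from 38 to 7 (ErbB2V664E) and from 16 to 4 (difference), with 0 members called and no other call among the members changed; for the 6 ratios, signs permuted within the 3 pairs can give no exact p under 0.25. Fitting the 6 libraries of a line alone gave 24 and 25 loci, and requiring 1 FPKM in 6 libraries gave 14 in the ErbB2V664E line and 10 in the difference. Leaving out single libraries gave 9 to 34 loci in the dnEGFR line, 12 to 235 in the ErbB2V664E line and 12 to 35 in the difference. The largest of these came without ErbB2V664E mutant 1, and the cause was not tested.

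Of 114 pairs of member and comparison, 69 kept their sign under every alternative and 45 did not; none of the values that took the other sign passed the threshold. Log2 changes named in the text that took both signs when single libraries were left out ran, in the dnEGFR line, from -0.149 to 0.061 for Gabbr1, -0.514 to 0.443 for Gabra3, -0.121 to 0.021 for Grik4, -0.042 to 0.049 for Grin1 and -0.125 to 0.131 for Grm3. For ErbB2V664E they ran from -0.207 to 0.674 for Gabra3, -0.128 to 0.042 for Gria2, -0.026 to 0.172 for Gria3, -0.100 to 0.050 for Grid1, -0.032 to 0.145 for Grik3, -0.092 to 0.140 for Grik5 and -0.539 to 0.048 for Grm5. In the difference they ran from -0.133 to 0.078 for Gabbr1, -0.214 to 0.776 for Gabra3, -0.535 to 1.13 for Grin2b, -0.202 to 0.300 for Grin3a and -0.332 to 0.255 for Grm5. Gabra3 in the dnEGFR line was at -0.021 with equal sums and -0.031 with quantile normalization, and Grm3 at -0.001 with equal sums. At 1 FPKM in 2 kb, 33.2 to 49.5 fragments stood behind a value, so counting error is largest for members under 1 FPKM.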

Other observations

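Gria4, an AMPA receptor subunit, was assembled as more than 1 locus. The second was listed at 0 in 9 of 12 libraries and at 8.18, 7.30 and 9.93 FPKM in dnEGFR control 2, mutant 1 and mutant 2, while the main locus was at 4.14 to 6.61 in all.

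Among ErbB2V664E mice, the sums of myelin, microglial and blood-related markers had lower means in mutants. By limma (adjusted p), the threshold was passed by 1 of the 8 mature oligodendrocyte markers, 0 of the 8 microglial and 0 of the 5 erythroid. Of the 38 tested receptor members 0 passed, against 0.275% of all loci. The 8 mature oligodendrocyte markers summed to 1666, 1184 and 1916 FPKM in controls and 1162, 713 and 967 in mutants, all 8 with a negative log2 change, and Mag, a myelin adhesion protein, fell by 1.22 on the log2 scale (limma, adjusted p = 0.0449). Globin and other erythroid genes summed to 143, 95.5 and 214 FPKM in controls and 118, 32.5 and 22.1 in mutants. The 8 microglial markers summed to 113, 98.0 and 130 FPKM in controls and 99.4, 64.7 and 56.6 in mutants, all 8 with a negative log2 change. Olig1, a transcription factor gene of the lineage, was listed at 0 in all 3 ErbB2V664E controls and at 48.0 to 59.0 in the mutants. In the dnEGFR line it was listed at 35.4 in control 1 and at 0 in every other library, mutants included. Whether these listed values of 0 were failed assignments was not tested. The part of these marker differences in the receptor values was not tested.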
